A study of Homo sapiens with 4 samples.

Results

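The genomic regions marked by RUNX1 in 2 CUT&Tag libraries are described for 6T-CEM, an established human line of T-cell acute lymphoblastic leukaemia. CUT&Tag tethers the transposase Tn5 to a protein on chromatin through an antibody, and fragments cut there are sequenced. Peaks of each RUNX1 library (Abcam antibody ab272456) were called by the authors against IgG, a control antibody. On chromosomes 1 to 22 and X the libraries held 25356 and 24997 peaks of 62034 in all 4 libraries of the series. The other 2 libraries were made from the same line with an ETS1 antibody (Santa Cruz sc-55581), and no treatment or genotype difference is given between the groups. Touching peaks of both RUNX1 libraries were merged, and the 22802 merged regions that held a peak of each library were kept. They contained 90.98% and 93.1% of the peaks of libraries 1 and 2. Nothing in the labels says whether the libraries came from separate cultures, so each SD (n = 2) describes how far 2 libraries differ and may be purely technical. A peak averages over all cells of a library, so strong binding in few cells and weaker binding in many cannot be told apart.

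RUNX1 is a DNA-binding transcription factor whose runt domain recognises the core TGTGGT, and it binds DNA more stably with its partner CBFB. It is needed for the emergence of blood stem cells and for thymocyte development, and its gene is a frequent target of mutation and translocation in leukaemia. RUNX proteins recruit activators such as the acetyltransferase EP300 and corepressors such as the TLE and ETO proteins. A peak shows where the antibody found the protein and not whether the gene nearby was expressed.

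The fold over IgG at the summit, the authors' own value for each peak, had a median of 8.20 over the regions (mean of both libraries), with quartiles of 5.48 and 13.7 and a range from 2.15 to 777.4. A fold of at least 20 was found at 3176 regions (13.9%), of at least 50 at 477 and of at least 100 at 72. The libraries were close to each other. The SD was under 10% of the mean at 71.3% of the regions, and the summits lay a median of 6 bp apart. Whether both were called against the same IgG library is not given, so the SD may hold no difference between controls. The number of reads or fragments stacked at a summit, recovered from the deposited values, had a median of 75 and 71 per peak, against an IgG expectation of 8.96 and 8.52. Peaks outside the regions, found in 1 library only, were weaker and narrower, with a median fold of 4.28 and 4.51 and a median width of 372 and 362 bp.

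Regions gathered at gene starts more than at far gene ends. A table of RefSeq gene starts (GRCh38.p14), which holds 15811 protein-coding genes and none of chromosome 8, gave the strand of each gene. A region lay within 1 kb of the outermost start end of 46.6% of these genes and within 1 kb of the far end of 8.29%. Among ends with no other coding gene end within 5 kb, the shares were 40.9% of 9200 start ends and 3.22% of 8891 far ends. Summits within 1 kb of a start numbered 6925, with a median position of -15 bp (negative is upstream). The fullest interval was the first 100 bp downstream of the start, with 1539 summits, followed by the 100 bp upstream of it with 1218. The windows from 250 bases before to 49 after each start were touched by a region in 9517 of 22131 cases (43.0%).

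**Figure D1:**
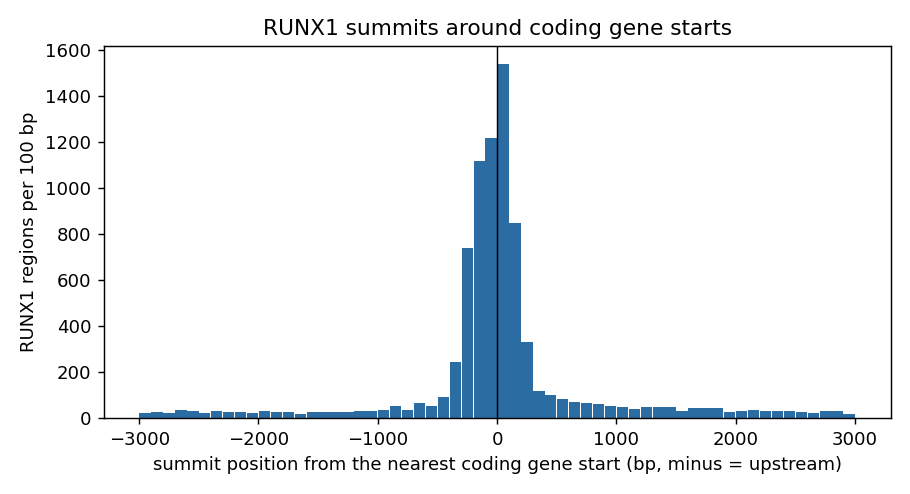
Number of RUNX1 regions by the position of the summit from the nearest coding gene start, in intervals of 100 bp; negative positions are upstream. The highest bar, 1539 regions, covers the first 100 bp downstream of the start.

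To show what lies under strong summits at gene starts, the 250 bases upstream of 7 starts are printed from the RefSeq table. They are the 6 strongest windows with the summits of both libraries inside and at least 1 TGTGGT on either strand, and the strongest such window with none. Capitals mark TGTGGT and its reverse complement ACCACA. Each sequence reads 5′ to 3′ on the strand of the gene.
DIABLO, chr12:122227457-122227706, minus strand: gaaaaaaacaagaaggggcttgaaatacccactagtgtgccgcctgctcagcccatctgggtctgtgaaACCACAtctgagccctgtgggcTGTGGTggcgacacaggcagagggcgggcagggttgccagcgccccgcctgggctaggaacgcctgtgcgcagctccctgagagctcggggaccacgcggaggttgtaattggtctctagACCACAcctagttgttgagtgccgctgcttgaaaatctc
UBALD2, chr17:76265098-76265347, plus strand: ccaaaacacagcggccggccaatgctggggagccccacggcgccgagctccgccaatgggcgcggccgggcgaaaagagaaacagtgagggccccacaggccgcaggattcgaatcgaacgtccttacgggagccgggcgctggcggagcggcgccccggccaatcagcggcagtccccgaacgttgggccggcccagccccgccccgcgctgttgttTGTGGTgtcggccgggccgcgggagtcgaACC
LZTFL1, chr3:45915725-45915974, minus strand: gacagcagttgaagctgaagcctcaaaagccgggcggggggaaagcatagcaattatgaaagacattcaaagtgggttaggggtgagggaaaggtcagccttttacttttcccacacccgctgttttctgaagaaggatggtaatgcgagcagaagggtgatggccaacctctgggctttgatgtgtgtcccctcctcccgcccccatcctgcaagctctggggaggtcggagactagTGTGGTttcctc
RNF125, chr18:32018575-32018824, plus strand: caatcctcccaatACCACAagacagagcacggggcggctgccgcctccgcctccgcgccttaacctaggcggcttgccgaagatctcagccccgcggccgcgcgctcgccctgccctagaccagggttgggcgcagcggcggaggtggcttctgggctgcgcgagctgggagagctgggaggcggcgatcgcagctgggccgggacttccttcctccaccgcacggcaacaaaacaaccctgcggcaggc
MZB1, chr5:139389914-139390163, minus strand: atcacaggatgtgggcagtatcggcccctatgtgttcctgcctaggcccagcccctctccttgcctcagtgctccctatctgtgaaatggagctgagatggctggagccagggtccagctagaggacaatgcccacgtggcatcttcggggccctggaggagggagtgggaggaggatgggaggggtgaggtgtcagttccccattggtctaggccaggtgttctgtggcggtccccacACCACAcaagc
RUNX3, chr1:24965011-24965260, minus strand: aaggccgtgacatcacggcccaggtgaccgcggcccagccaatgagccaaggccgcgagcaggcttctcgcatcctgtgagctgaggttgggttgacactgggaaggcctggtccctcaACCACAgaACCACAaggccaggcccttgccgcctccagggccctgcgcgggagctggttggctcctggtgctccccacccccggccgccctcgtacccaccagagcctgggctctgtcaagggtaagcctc
JPT2, chr16:1678029-1678278, plus strand: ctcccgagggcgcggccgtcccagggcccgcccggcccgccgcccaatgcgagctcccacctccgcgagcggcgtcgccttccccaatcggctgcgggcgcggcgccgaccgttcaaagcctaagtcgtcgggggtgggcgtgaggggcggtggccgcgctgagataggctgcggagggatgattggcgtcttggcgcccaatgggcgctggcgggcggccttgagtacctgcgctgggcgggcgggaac

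The fold at these starts was 101.6 and 109.1 in the libraries at DIABLO, which encodes a mitochondrial antagonist of the inhibitor of apoptosis proteins. With negative positions upstream of the start, its 3 matches begin at -181, -159 and -39, and the summits lay at -124 and -129. RUNX3, a paralogue of RUNX1, had 48.2 and 50.6-fold with both summits at -92, and its 2 matches begin at -131 and -123. UBALD2 had 87.9 and 90.03-fold. Its 2 matches begin at -32 and -3, so that the last one runs past the printed stretch, and they lay at least 197 bp from the summits. LZTFL1, which encodes a regulator of ciliary protein traffic, had 65.7 and 68.7-fold, RNF125, a ubiquitin ligase gene, 58.3 and 56.8-fold, and MZB1, which encodes an endoplasmic reticulum chaperone of B-lineage cells, 51.7 and 48.4-fold. MZB1 has a further match 20 bases after the start, outside the printed stretch. JPT2 had 115.7 and 115.8-fold with no match. The nearest match lay 27 bp from a summit at DIABLO, 28 bp at RUNX3 and 104 bp at RNF125.

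Across all windows of 300 bases, TGTGGT on either strand was found in 11.3%, and the variant TGCGGT in 8.54%. The ETS core CCGGAAGT was found in 5.34%. In the 3832 windows with both RUNX1 summits inside, TGTGGT was in 10.3%, against 12.6% of the 12614 windows with no region. TGCGGT was in 15.3% against 6.02%, and CCGGAAGT in 10.3% against 2.69%. Windows with both summits are richer in G and C (median 68.3%) than those with no region (57%). Within windows of 50 to 60% GC, TGTGGT was in 18.1% with both summits and in 14.7% with no region. At 60 to 70% the shares were 11.1% and 9.78%, and at 70% or more 7.22% and 4.07%. Under 50% GC only 11 windows held both summits. When windows with both summits were divided into 4 equal groups by fold, TGTGGT was in 7.72%, 9.29%, 9.39% and 14.8% from the lowest to the highest group, and TGCGGT in 11.6%, 12.8%, 13.8% and 23.2%. CCGGAAGT was in 10.4%, 12.3%, 8.77% and 9.81%. The longer TGTGGTT, which contains TGTGGT, was in 3.37% of windows with both summits and 3.70% of all windows. A match is a description of the sequence and not a binding site.

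**Figure D2:**
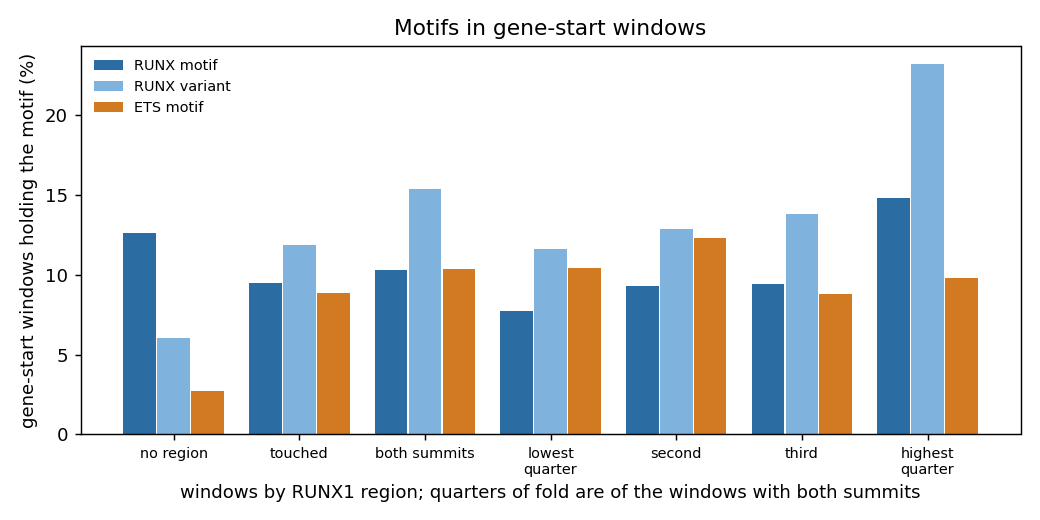
Share of 300-base gene-start windows that hold the RUNX motif TGTGGT, its variant TGCGGT or the ETS motif CCGGAAGT on either strand, by RUNX1 region. The last 4 groups of bars divide the windows with both summits by fold, and the RUNX motif is in 7.72% of the lowest and 14.8% of the highest group.

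Several genes had RUNX1 at a start inside the gene and none at an outermost end. The table gives such an internal start, over 1 kb from both ends, for 1987 genes without a region at either end, and a region lay within 1 kb of it at 434 of them (21.8%). GATA3, which encodes a transcription factor required for T-cell development, had 49.96 and 40.02-fold at a start 15124 bp into the gene, with summits at -63 and -83 from that start. ELF4, an ETS family gene, had 44.4 and 37.7-fold at a start 24925 bp into the gene, with summits at 8 and -32. The strongest were at RAP1GAP2 (98.7 and 97.01), at the retinoic acid receptor gene RARA (90.6 and 89.5) and at GSE1 (85.9 and 77.6). In RAP1GAP2 and RARA the summits lay farther from the start (-3601 in both libraries, and 4546 and 4544), within wide regions that reached it. The histone demethylase gene KDM2B (45.9 and 39.3) had both summits at -126 from its internal start. These genes were chosen after their values were seen.

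Of 19817 protein-coding genes, 9344 (47.2%) had a region within 1 kb of an outermost end. Such an end may be the start or the far end of the gene, and the regions in this paragraph were not divided by it. Of the 15 strongest regions that touched such an end window, 8 had their summit within 1 kb of an end, 5 farther inside a gene and 2 outside genes. After the uncharacterised LOC107983989, the highest fold among them was at ARHGEF2, which encodes a microtubule-bound activator of RhoA, with 152.4 and 156.8 in the libraries. SPPL3, an intramembrane protease gene, followed with 142.6 and 143.4, and FNBP1, a gene of membrane curvature and actin assembly, with 130.9 and 132.6. A region of 6419 bp that spans neighbouring ends of STAT5A and STAT3 came next. The actin scaffold gene IQGAP2 had 109.0 and 117.0. A region of 6022 bp with 105.0 and 107.3-fold covered the ends of SIT1, which encodes an inhibitory adaptor of the T-cell receptor, and of CD72, a receptor gene of B cells. The other regions among the 15 strongest were at JPT2 and CRAMP1 (115.8 ± 0.0537, SD, n = 2), PPAN and ANGPTL6 (111.8 ± 2.93), the stress-response factor gene ATF5 (108.0 ± 5.35), the ESCRT gene VPS37C (106.6 ± 5.03), DIABLO (105.3 ± 5.27), DOHH (100.2 ± 2.68), ING5 and D2HGDH (98.8 ± 1.44) and DMWD (92.7 ± 5.04). One region lay at the ends of at least 2 coding genes in 1472 cases, and both genes were then counted.

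Of 18 listed genes of RUNX proteins and their partners, 17 had a RUNX1 region at an end, against the background of 47.2%. This list and those of the next paragraph were chosen with earlier results of these data known, so their shares are no test. Members after the strongest 4 of this and the next lists are named for their role, after their values were seen. At CBFB, the partner subunit, the fold was 24.8 and 25.2. Among the corepressor genes it was 36.1 and 36.9 at TLE4, 27.4 ± 2.04 (SD, n = 2) at CBFA2T3, 20.3 and 17.5 at SIN3A, and 16.1 and 14.7 at TLE3. The acetyltransferase genes EP300 (27.8 and 27.01) and CREBBP (5.39 and 4.96) had regions at an end that differed in fold, as did the deacetylase genes HDAC1 (14.4 and 15.5) and HDAC2 (7.19 and 7.57). RUNX2 was the member without a region at an end, although 3 regions lay within the gene. The RUNX1 gene held 14 regions between its ends and RUNX3 held 10.

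Among genes of lymphocyte movement, 24 of 27 listed actin and motility genes had a region at an end. The share of all coding genes, which also applies to the next 2 lists, was 47.2%. The unconventional myosin gene MYO1G had 34.99 and 35.7-fold, the formin gene FMNL1 32.4 and 32.6, the non-muscle myosin gene MYH9 31.3 and 32.2, and the profilin gene PFN1 28.2 and 26.9. The GTPase gene RAC2 had 26.9 and 27.96, and CORO1A, whose loss causes an immunodeficiency, 21.5 and 22.8. At the cofilin gene CFL1 the libraries differed, with 13.7 and 24.3. WIPF1, DOCK8 and MSN had none at an end. Of 25 adaptors and phosphatases that restrain or relay lymphocyte signals, 21 had a region, led by SIT1 and by RASAL3, a RAS inhibitor gene, with 47.96 and 42.6. DUSP2, a phosphatase gene of MAP kinases, had 32.3 and 26.8, and RASA2, a RAS inhibitor gene, 22.5 and 23.6. SH3BP2 and SLA had none at an end but 8 regions each within the gene, while DUSP5 and SPRY2 had none at either place. Of 21 transcriptional repressor genes, 14 had a region: ZBTB7B, which directs thymocytes to the CD4 lineage, had 46.9 and 51.9, ZBTB7A 37.6 and 36.4, and ZEB1 33.04 and 32.3. ZEB2, BCL6, PRDM1, CTBP2, IKZF3, IKZF4 and BCORL1 had none.

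Gene families defined by symbol spread widely around the background. Of 54 families and lists, 27 lay above the share of all coding genes and 27 below, and 48 kept their side in all 7 alternative settings. Among families of at least 30 genes the highest shares were at RNA polymerase subunits (26 of 33), replication-dependent histones (54 of 69), KDM, KMT and SMARC genes of histone methylation and remodelling (31 of 40), cytosolic ribosomal proteins (64 of 85), ubiquitin-conjugating UBE2 genes (26 of 36) and EIF translation factors (39 of 55). Mediator genes (20 of 30), NDUF, COX and ATP5 genes of respiration (61 of 92) and mitochondrial ribosomal proteins (51 of 77) followed. The median fold was 6.59 for the respiration genes and 9.07 for the cytosolic ribosomal genes, against 8.62 over all genes with a region. The histone genes had a higher fold, with a median of 19.5 over 54 genes that shared 35 regions. Their median pileup was not higher, at 82 against 93.5 for the cytosolic ribosomal genes. The median IgG expectation was 3.69 against 10.3. RPS16 (55.1 ± 0.516), RPS9 and RPS19 were the strongest ribosomal genes and all lie on chromosome 19. Among signalling receptors, the TNF receptor superfamily had 14 of 21, with 80.4-fold at TNFRSF4, the gene of the T-cell costimulator OX40. Chemokine and interleukin receptors lay below the background of 47.2%. Chemokine receptors had 4 of 16 (25%), namely CCR10 (31.2), CCR7 (28.1), CXCR3 (21.4) and CXCR4 (17.3). Interleukin receptors had 11 of 40 (27.5%), led by IL21R (32.0) and IL6R (29.1).

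Other families lay well below the background. Olfactory receptor genes had 3 of 389, HOX genes 1 of 40 (HOXB2, 3.96-fold), protocadherins 2 of 65 and claudins 2 of 24, while 39 beta-defensin and 24 bitter taste receptor genes had none. Potassium channel genes had 25 of 96, collagens 9 of 44 and WNT genes 3 of 19. Single members of such families could have a high fold. Among 13 of 94 keratin-associated genes, KRTAP5-10 and KRTAP5-1 on chromosome 11 had 56.6 and 48.4-fold, although these genes resemble each other and their reads may be shared. Zinc finger genes had 298 of 538 (55.4%), with 55.3% on chromosome 19 and 55.5% elsewhere, while other coding genes of chromosome 19 had 62.3%. The sides of nuclear receptor, CD antigen, USP, tubulin, integrin and GATA genes changed in at least 1 setting. The shares do not take account of expression, GC content or how many genes lie side by side, and their part was not tested.

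**Figure D3:**
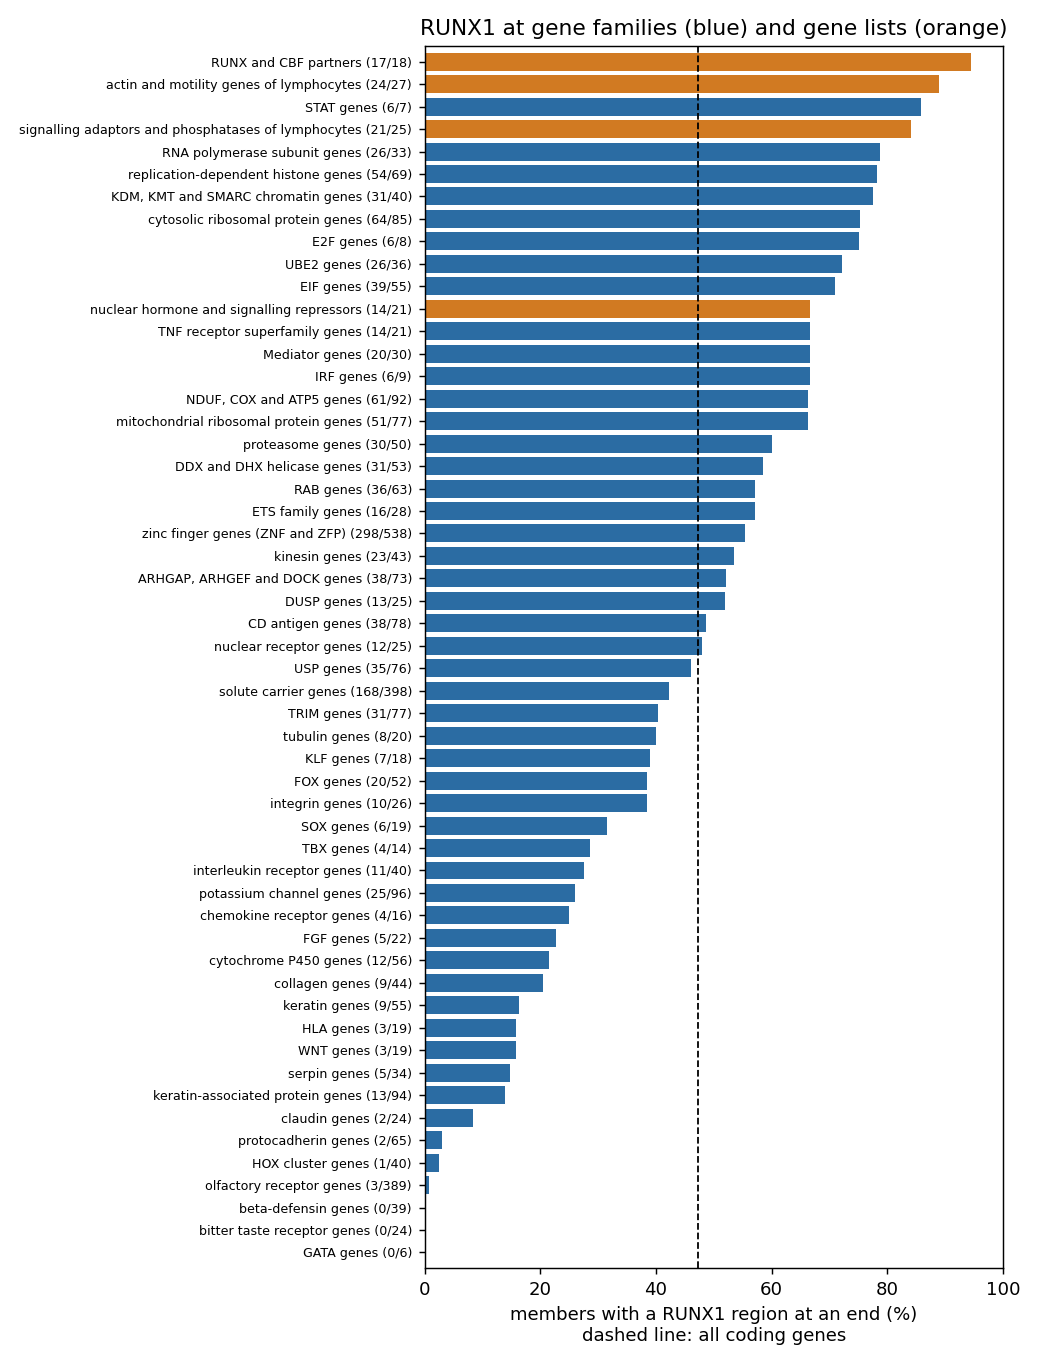
Share of coding genes with a RUNX1 region within 1 kb of an outermost end, for families defined by symbol (blue) and lists (orange), with members found and members counted in brackets. The dashed line is the share of all coding genes, 47.2%. RUNX and CBF partners lie highest with 17 of 18, and 3 families have 0. The lists were chosen with earlier results of these data known.

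The labelled lineage was checked against marker genes. Of 10 T-lineage markers, 9 had a region at an end, where the share of all coding genes was 47.2%. TRAC and TRBC2 among them are constant segments and are not counted as coding genes. Of the 8 coding markers, 7 had a region at an end. All 10 markers had a region in the gene or within 10 kb, where the share of all coding genes was 62.3%. The mean fold at these ends ranged from 6.88 at TRAC to 52.0 at CD3E. Of the others, named after their values were seen, CD7 had 17.5 and 15.4-fold, CD3G 15.4 and 15.8, and CD2 8.58 and 9.77. At gene ends RUNX1 was at 1 of 5 B-lineage, 1 of 6 myeloid, 1 of 4 erythroid, 2 of 4 natural killer and 2 of 6 non-blood markers. Within 10 kb it was at 3, 5, 2, 2 and 3. The strongest of these was NKG7, a cytotoxic granule gene, with 85.8 and 95.9.

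Noncoding genes carried RUNX1 less often. A region lay within 1 kb of an end of 23.3% of 58415 annotated genes of all types, and of 3054 of 17904 long noncoding RNA genes (17.1%), of which 1283 had it away from coding gene ends. Pseudogenes had 2.21% and transcribed pseudogenes 19.5%. The strongest long noncoding genes were LINC01063 (153.3 and 160.5) and LOC124902688 (148.4 and 150.4). A region of 4990 bp and 134.7 and 128.9-fold covered LINC02332 and LOC105370399, close to TRAC, the constant segment of the T-cell receptor alpha chain. Small nuclear RNA genes had 39 of 149 with a median of 23.2-fold, and transfer RNA genes 128 of 429. RNU1-2 (41.9 and 45.4) and SNORD3B-2 (62.3 and 59.5) belong to families of near-identical copies, so their reads are uncertain. Regions at noncoding ends only numbered 1766 (7.74%), and 12357 (54.2%) lay at no annotated end.

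Of 1558 microRNA hairpins in the RefSeq table, a region touched 127 (8.15%) and covered 120 of them whole. To show which microRNAs of blood cells were covered, mature sequences are printed for 5 of them, chosen after their values were seen, with the seed (bases 2 to 8) in capitals.
miR-142-3p: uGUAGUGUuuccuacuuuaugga
miR-142-5p: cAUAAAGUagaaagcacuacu
miR-26b-5p: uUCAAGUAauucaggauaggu
miR-23a-3p: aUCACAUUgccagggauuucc
miR-27a-3p: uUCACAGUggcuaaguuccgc

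MIR142, a microRNA gene specific to blood cells, lay in a region of 9407 bp with 43.2 and 46.3-fold. MIR23A, MIR27A and MIR24-2, which are transcribed together, shared a region of 1802 bp with 23.3 and 21.7-fold, and the seeds of miR-23a-3p and miR-27a-3p printed above differ. MIR26B lay in a region of 7117 bp with 28.8 and 30.1-fold that also covered an end of CTDSP1, its host gene. Both summits were at 218396989, 95 bp from an end of SLC11A1, while the hairpin spans 218402646–218402722. The fold was therefore measured away from this hairpin. Among the hairpins of this table, which holds none of chromosome 8, the highest folds were at MIR4751 in ATF5 (108.0 ± 5.35) and MIR4513 in CSK (103.1 ± 0.854), where the region may belong to the coding gene. Of 8 microRNA host loci of blood cells, 6 had a region at an end: MIR142HG, MIR150 (25.1 and 23.6), MIR210HG (15.9 and 17.1), MIR223HG (15.4 and 14.9), MIR17HG (4.73 and 4.46) and MIR155HG (3.70 and 4.31). MIR181A1HG and MIR146A had none within 10 kb. Over all annotated genes, a region lay at an end of 17.1% of long noncoding RNA genes and 12.7% of microRNA genes.

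Away from gene ends, 8858 regions (38.8%) had their summit inside a coding gene and 6145 (26.9%) outside all of them. Regions at gene ends had the highest median pileup, 96 against 72.5 inside and 69.5 outside, but also the highest IgG expectation (11.1 against 8.19 and 7.98), so their median folds were alike (8.002, 8.28 and 8.38). Folds of at least 50 were found at 86 regions at gene ends, 237 inside genes and 154 outside. Of the regions outside genes, 1278 lay 1 to 5 kb from the nearest end and 154 over 500 kb away. A region 1769336 bp from PCDH10 on chromosome 4 (131379332–131380463) had 59.8 and 66.1-fold and lay 201 bp from the long noncoding gene LINC02377. It was chosen after its values were seen.

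Some genes gathered many regions. Of the coding genes, 10761 were touched by at least 1 region between their ends, 515 by at least 5, 89 by at least 10 and 9 by at least 20. GSE1, a gene of histone deacetylase complexes, held 46 regions, the cytoskeletal GTPase gene SEPTIN9 38, the spindle checkpoint gene MAD1L1 37, the mTOR complex gene RPTOR 29 and the deacetylase gene HDAC4 25. CDH4 (23), LDLRAD4 and COL23A1 (21 each), TCF20 (20), PTPRN2 and ANKRD11 (19 each) and CDH23 (18) followed. Most regions in such genes were of ordinary strength: in GSE1 the median fold was 6.57 and the highest 110.8 and 99.6. Among genes with at least 10 regions, the order per 100 kb was different, with TBC1D10A (31.5), USP20 (25.9) and SPIRE2 (23.3) first, and RUNX3 at 15.2. Counted per gene and not per base, long genes held no region about as often as others. Of 314 coding genes of at least 500 kb, 157 held none (50%), against 45.7% of all coding genes. The median was 0.5 regions in these long genes and 1 in all coding genes, although long genes offer more bases. The long genes with none included RBFOX1, DMD, DLG2, CSMD1 and EYS, which are known for roles in nerve, muscle or retina.

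Region width varied from 290 to 22450 bp, with a median of 869 bp and quartiles of 583 and 1355 bp. Wider regions were stronger: the median fold rose from 5.74 under 500 bp to 38.2 at 5 kb or more, and the median pileup from 45.5 to 438.5, while the IgG expectation was 6.74 and 9.94. Spearman's rho of width and fold was 0.516 over the regions, which are not independent replicates. An ETS1 region overlapped 2.06% of the regions under 500 bp and 78.6% of those of at least 5 kb. Overlap was scored over the whole region. Wide regions offer more bases for it and were also stronger, and the part of each was not tested.

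**Figure D4:**
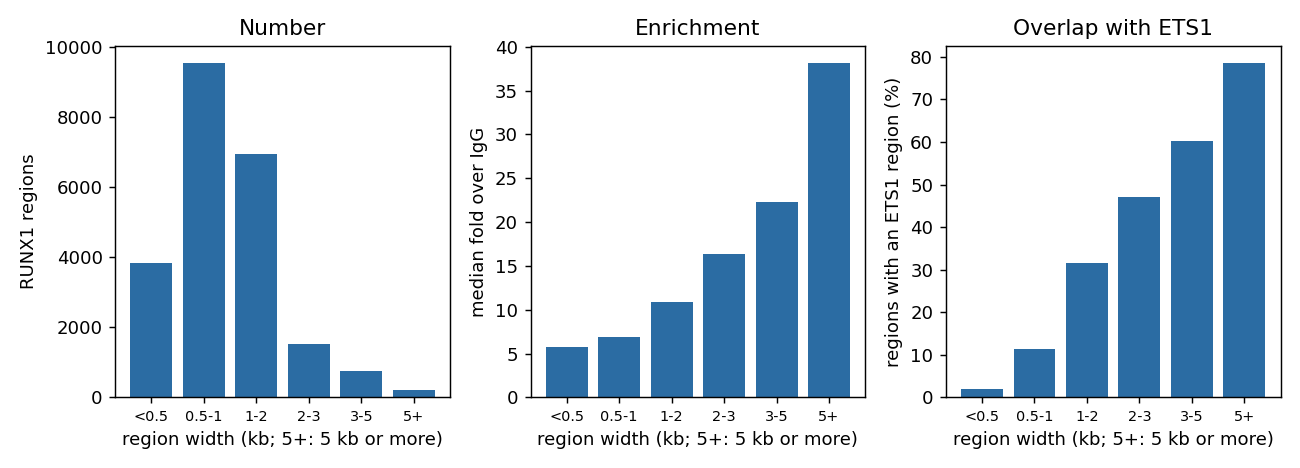
Number of RUNX1 regions, their median fold over IgG and the share that overlaps an ETS1 region, by region width in kb. The 206 regions of at least 5 kb have a median fold of 38.2, against 5.74 for regions under 500 bp.

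The 206 regions of at least 5 kb (0.903% of all) held 5.60% of the covered bases. Of these, 54.4% had the summit inside a gene, 23.8% outside and 21.8% at a gene end, and 30 lay on chromosome 17, 27 on chromosome 19 and 19 on chromosome 16. In 138 of them each library alone had a peak of at least 5 kb. The widest, 22450 bp in and beside NSMF on chromosome 9, rested on a single peak of 22232 bp in library 1 and on 4 peaks of up to 12059 bp in library 2. The second, 21561 bp in PLEC, which encodes the cytoskeletal linker plectin, had 119.5 and 124.0-fold. A region of 14942 bp in KDM4B, a histone demethylase gene, was nearly the same in both libraries (14901 and 14914 bp, 101.2 and 101.9-fold). Regions in KLF16 (14257 bp), GSE1 (13827), the chromatin gene BAHCC1 (13783), the transcription factor genes MAZ (12637) and MAFG (12610), BAIAP2 (11997), TMC6 and TMC8 (11369) and AMZ1 (11333) were among the 12 widest. The region of 12032 bp inside NOTCH1, the receptor gene most often mutated in this leukaemia, had 56.8 and 51.4-fold. Just above 5 kb lay regions at ABCA2 (5004 bp, 12.3-fold) and CD82 (5006 bp, 52.5-fold), and just below it regions at ACTG1 (4997 bp, 10.6-fold) and in STMN3 (4995 bp, 42.3-fold).

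Regions also stood close together. When regions with gaps of at most 10 kb were joined, 1677 clusters of at least 3 regions held 7737 regions (33.9%) and 42.0% of the covered bases, while 10749 regions stood alone. A cluster had a median span of 15.3 kb, and 86 had at least 10 regions. Clustered regions were inside genes in 48.5% and at gene ends in 23.1%, against 33.9% and 39.9% of the others, and their median fold was similar (8.55 against 8.05 for regions alone). With the stricter limit of 20 on −log10 q, there were 975 clusters.

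The cluster with the most regions and the most covered bases had 32 regions over 134.3 kb, all inside SEPTIN9, with a highest fold of 73.1 and 72.9. The next, with 27 regions over 106.7 kb, held BAHCC1 and reached 178.4 and 165.4. The third had 21 regions over 114.5 kb at CBFA2T3, the gene of the RUNX corepressor ETO2, and reached 77.7 and 76.8. Of its regions, 15 had the summit outside the gene. A cluster of 15 regions over 70.4 kb at NOTCH1 and SEC16A reached 78.04 and 75.9 at 136503081–136508517, inside NOTCH1. A cluster of 12 regions over 52.95 kb held 7 coding genes, among them PTPRCAP, which encodes a partner of the phosphatase CD45, CORO1B and TBC1D10C, and 69.5% of its span was covered. The others among the 12 with the most covered bases were at SLC17A9 and BHLHE23 (20 regions), GSE1 (17), FBRSL1 (18), ABCA7 and ARHGAP45 (13), HELZ2 and PTK6 (13), DNAJB12 (14) and KLF16 (8). By number of regions, OSM with TBC1D10A and MAD1L1 had 18 each. Further clusters are named after their values were seen. One of 16 regions near TCF7, the gene of the T-cell factor TCF1, reached 115.97 and 120.0-fold inside the neighbouring VDAC1. The retinoid receptor genes RARA (13 regions) and RXRA (11 regions, 48.1-fold) also lay in clusters.

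**Figure D5:**
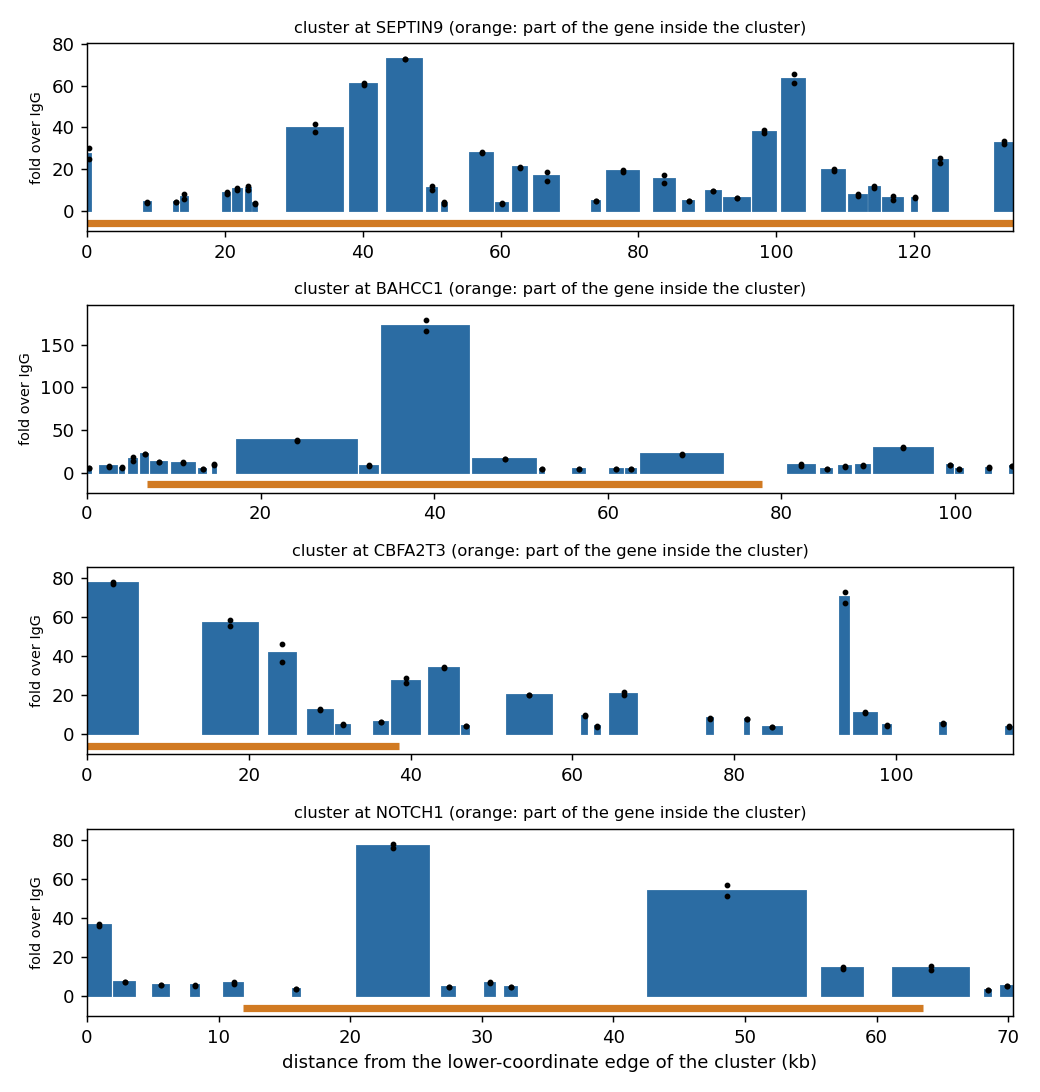
RUNX1 regions in the clusters at SEPTIN9, BAHCC1, CBFA2T3 and NOTCH1, drawn to scale as boxes from the lower-coordinate edge of each cluster; box height is the mean fold over IgG of both libraries and dots are the libraries. The orange bar is the part of the named gene inside the cluster. At SEPTIN9 all 32 regions lie in the gene, and at CBFA2T3 15 of 21 have their summit outside it.

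RUNX1 libraries had more of their peaks in clusters than ETS1 libraries, but not with equal numbers of peaks. The share in clusters of at least 3 peaks was 37.999% and 37.6% for RUNX1 (37.8% ± 0.276) and 16.2% and 15.5% for ETS1 (15.9% ± 0.486, SD, n = 2 each). With only the 5611 strongest peaks of a library by −log10 q, the number in the smallest library, the shares were 7.31% ± 0.0756 and 15.3% ± 0.302, and the order was reversed. Peaks of at least 2 kb made up 8.70% and 8.41% of RUNX1 and 1.63% and 1.41% of ETS1 peaks, and 28.3% ± 0.907 and 1.59% ± 0.252 with equal numbers. That setting kept only the strongest of 25356 and 24997 RUNX1 peaks, but most or all of 6070 and 5611 ETS1 peaks. Because wider RUNX1 regions were stronger, it also selects wide RUNX1 peaks and cannot separate peak number from strength. All 4 differences were larger than the spread between libraries, and each had an exact permutation p of 0.333 (two-sided), the smallest that 2 against 2 libraries can give.

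By chromosome, regions per Mb ranged from 2.79 on X and 3.13 on chromosome 4 to 31.1 on chromosome 19. Per coding gene the order changed, from 0.513 on X to 2.11 on chromosome 22, while chromosome 19 had 1.29. The densest 1-Mb windows were at 89 to 90 Mb of chromosome 16 (104 regions) and 63 to 64 Mb of chromosome 20 (102), and 857 of 3041 windows (28.2%) held none.

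One dense window held no coding gene: 106 to 107 Mb of chromosome 14, with 76 regions, spans variable segments of the immunoglobulin heavy chain. Of 127 such segments and segment pseudogenes, 62 had a region within 1 kb of an end, with 83 regions over the 940.1 kb they span. IGHV1-3 had 44.6 and 40.8-fold, IGHV1-45 37.8 and 39.3, and IGHV1-69 38.3 and 37.4. Over the heavy-chain regions the median fold was 9.44 and the median IgG expectation 6.72. Segments of the kappa chain had none (0 of 76 over 1350 kb), and those of the lambda chain 4 of 73. Those of the T-cell receptor alpha chain had 2 of 54 and of the beta chain 6 of 61. The highest fold of a region in the span of the segments was 70.9 for the heavy chain and 38.8 for lambda. It was 32.2 for the alpha chain and 141.8 for the beta chain. Segments of one family resemble each other, filters on multiply mapped reads are unknown here, and the part of shared reads in these counts was not tested. These loci were compared after their values were seen.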

How the data were processed

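The 2 RUNX1 libraries of 6T-CEM cells were analysed, with the 2 ETS1 libraries as a comparison. The submitters' processing notes name MACS3 3.0.0a6, Bowtie2 without a version, bcl2fastq 2.17 and build hg38. The treatment of duplicates and of multiply mapped reads, like the q threshold for calling, is not given in the sources used here. Replicates were not pooled: the authors called peaks per library against IgG. The authors' deposited lists give for each peak a fold over IgG (a ratio), −log10 p and −log10 q, and a score that was not used. Total reads are not in the lists, so depth is unknown. The pileup and the IgG expectation at each summit were solved from the deposited fold and −log10 p, which gave a whole pileup for 100% of RUNX1 peaks (to within the larger of 0.01 in −log10 p and a relative error of 5e-05). This limits the precision of the fold of a weak peak.

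Region merging, gene-end hits and the pileup solution were tested on simulated data, and the joining into clusters was not. Regions touching or overlapping were merged, and the strongest peak of each library gave the region its fold. A region lay at a gene end when its summit was within 1 kb of an outermost end of a coding gene, and a gene had a region at an end when a region touched that window. Genes, starts and sequences came from RefSeq tables of GRCh38.p14, the assembly of hg38. No genome was used, so motifs were searched in gene-start windows only. Gene symbols of the lists all matched. Python 3.11.15, pandas 2.3.3, numpy 2.4.6, scipy 1.17.1 and matplotlib 3.10.9 were used.

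The members and lists were chosen with earlier results of these data known. Named items follow a rule: the 12 widest regions, the 12 clusters with the most bases and the 5 with the most regions, the 12 genes with the most regions, the 15 strongest regions touching a gene-end window, up to 4 members per family and 5 genes per noncoding type by fold, members without a region where few, and the promoters described. Items outside it were chosen after their values were seen. RUNX1 and ETS1 libraries were compared by an exact permutation test, two-sided. Alternatives were stricter peaks (a limit of 20 on −log10 q), other windows, gaps, motifs and overlap rules, equal numbers of peaks, each library left out and pairing by replicate number.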

Additional observations from a re-analysis of the deposited data

How the results depend on the processing

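Of 49 alternative values, 35 kept their direction and stayed within the tolerance, 13 moved beyond it and 1 was reversed. The tolerance was not equally strict for all measures, and some values within it changed clearly. With a limit of 20 on −log10 q, regions fell from 22802 to 16622. Coding genes with a region at an end then fell from 9344 to 7728. With gaps of up to 5000 bp, clusters fell from 1677 to 1213. The reversed value was the difference in the share of peaks in clusters, RUNX1 minus ETS1, which was 21.9 percentage points with all peaks and -8.002 with the 5611 strongest peaks of each library. The share of regions at coding gene ends (34.2%) was 37.1% with a limit of 20 on −log10 q, 29.7% with a window of 500 bp, 50.2% with one of 5000 bp and 32.7% to 33.01% with a library left out. The median width (869 bp) was 857 bp under a reciprocal overlap of 50%, 1031.5 bp with the stricter peaks, 741 bp for the overlap of both libraries and 741 to 753 bp with a library left out. The number of clusters (1677) fell to 975 with the stricter peaks. The share of windows with both summits that held the motif (10.3%) was 3.37% for TGTGGTT and 15.3% for TGCGGT, which follows from the other letters searched. The cause of the other changes was not tested. The reciprocal overlap for results other than the number of regions, and the ETS1 comparison with a library left out, were chosen after seeing the data.

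Pairing the libraries by replicate number (replicate block) left the differences from ETS1 at 21.9 and 7.03 percentage points, with an exact p of 0.5, the smallest that 2 pairs can give. Nothing in the labels says that a number marks a shared culture. With 2 libraries, the SD has 1 degree of freedom, and weak peaks found in 1 library only were not described further. The number of regions ranged from 24997 to 25356 with a library left out. The recovered pileup, not the unknown read total, is the depth behind each fold.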
